A study of Saccharomyces cerevisiae with 16 samples.

Results

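The genes described here are 10 genes of Saccharomyces cerevisiae that make pyrimidine nucleotides or take up uracil: URA1, URA2, URA4, URA5, URA6, URA8, URA10, FUR1, FUR4 and PPR1. They were chosen by gene symbol from the array's annotation, 10 of the 5315 named genes, and the selection marker URA3 was left out. Newly made RNA was measured on 16 dual-colour arrays, in 2 strains at 4 times, with 2 arrays per group. Mot1-aa and WT-aa cells were both taken at 0 min without rapamycin and at 10, 20 and 30 min after 7.5 µM rapamycin. All were grown with 2% glucose. All cells received 5 mM 4-thiouracil, a uracil analogue, for the last 6 min.

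Mot1 is an ATPase that lifts the TATA-binding protein off DNA. In Mot1-aa it carries an FRB domain with yEGFP and V5 tags, so that rapamycin ties it to the FKBP12-tagged ribosomal protein Rpl13A and draws it out of the nucleus. WT-aa is the parent without the FRB tag. Both strains are MATalpha, carry tor1-1, RPL13A-FKBP12 and MET15, lack FPR1, and are marked his3-1, leu2, lys2 and ura3. Per the series' design text, 2 independently grown cultures of each group went onto separate arrays. Culture 1 was read in Cy3 and culture 2 in Cy5, always against a pool of 4-thiouracil-labelled RNA from WT-aa without rapamycin. No label says whether the 4 times of a strain come from the same culture.

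Yeast builds UMP from carbamoyl phosphate and aspartate, through dihydroorotate and orotate, and makes UTP and CTP from it. It can also import uracil and join it to phosphoribosyl pyrophosphate (PRPP). A strain marked ura3 lacks the last step to UMP and lives on imported uracil. The transcription factor Ppr1 reads pathway intermediates and activates URA1, URA3, URA4 and URA10. URA2 and URA8 are known for a different control, in which the nucleotide supply sets where transcription starts. URA1 is a known gene that needs Mot1 for full transcription, and Fur4 and Fur1 are the proteins that bring 4-thiouracil into new RNA.

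Each value below is log2 of the sample over the reference pool for the same gene, so levels of different genes cannot be set beside each other. Each array was normalized to its typical gene, and changes are relative to that gene. The depletion effect compares the strains' changes since 0 min: that of Mot1-aa with that of WT-aa subtracted. A gene was called at an adjusted p under 0.05 by limma, fitted to all 5315 genes. Gene spots lay 12.9 times over background on the array of Mot1-aa 0 min culture 1 and 24.7 times or more on every other array. The changes of Mot1-aa from 0 min in culture 1 and culture 2 correlated across genes with r = 0.816 at 20 min and 0.906 at 30 min, but -0.0583 at 10 min, so the Mot1-aa 10 min arrays stand apart. The MOT1 probe does not check the depletion, which moves the protein: at 30 min its depletion effect came to 0.84 (SE 0.79, adjusted p = 0.48 by limma).

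Of the 10 genes, 9 gave signal above the 99th percentile of the quality control spots in both channels of all 16 arrays. URA1 (YKL216W) and FUR1 (YHR128W) were bright, with medians of 285 and 225 times over background. URA10 (YMR271C) was the dimmest of the 9, with a median of 5.21. URA6 (YKL024C), the UMP kinase, was not above the control spots in either channel on any array, with 1.02 to 1.07 times the background. No level or fold is given for URA6, although it stays in the counts of 10. The SD between duplicate spots had a median of 0.01 to 0.03 log2 units for the 9 genes.

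No pyrimidine gene had a depletion effect that passed the test. At 10 min 0 of the 10 genes passed, where 0% of all genes did. At 20 min it was 0 of 10 against 8.09% of all genes, and at 30 min 0 of 10 against 21.1%, or 13.6% higher and 7.51% lower. The median depletion effect of the 10 genes at 30 min was 0.09, against 0.01 over all genes. At an unadjusted p under 0.05, 225, 1086 and 1882 of all genes counted at 10, 20 and 30 min. The lack of calls depended on the fit. With array weights URA2 passed at 20 min, where 13.3% of all genes did. Without either Mot1-aa 10 min array, URA2 and URA4 passed at 20 min, and URA2, FUR1 and PPR1 at 30 min. Those fits leave 1 array in that group, and more of all genes passed in them too.

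URA1, dihydroorotate dehydrogenase of the fourth step, was below the reference on all 16 arrays. In Mot1-aa, cultures 1 and 2 stood at -0.52 and -0.27 at 0 min, -0.43 and -0.82 at 10 min, -0.54 and -0.40 at 20 min, and -0.68 and -0.36 at 30 min. In WT-aa they stood at -0.11 and -0.07 at 0 min, -0.29 and -0.15 at 10 min, -0.29 and -0.21 at 20 min, and -0.20 and -0.30 at 30 min. At each time both Mot1-aa arrays lay below both WT-aa arrays, before rapamycin as well as after it. How many of all genes did the same at each time was not counted. By limma the strain difference of URA1 did not pass at 0 min (-0.31, adjusted p = 0.336) or at 30 min (-0.27, adjusted p = 0.132). The depletion effect of URA1 was -0.10 at 10 min (SE 0.19), 0.09 at 20 min (SE 0.19) and 0.04 at 30 min (SE 0.19, adjusted p = 0.905 by limma). The 95% interval at 30 min ran from -0.39 to 0.47, so a fall by more than 0.39 on the log2 scale lies outside it. In culture 1 alone the effect at 30 min was -0.06, and in culture 2 it was 0.13.

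**Figure D1:**
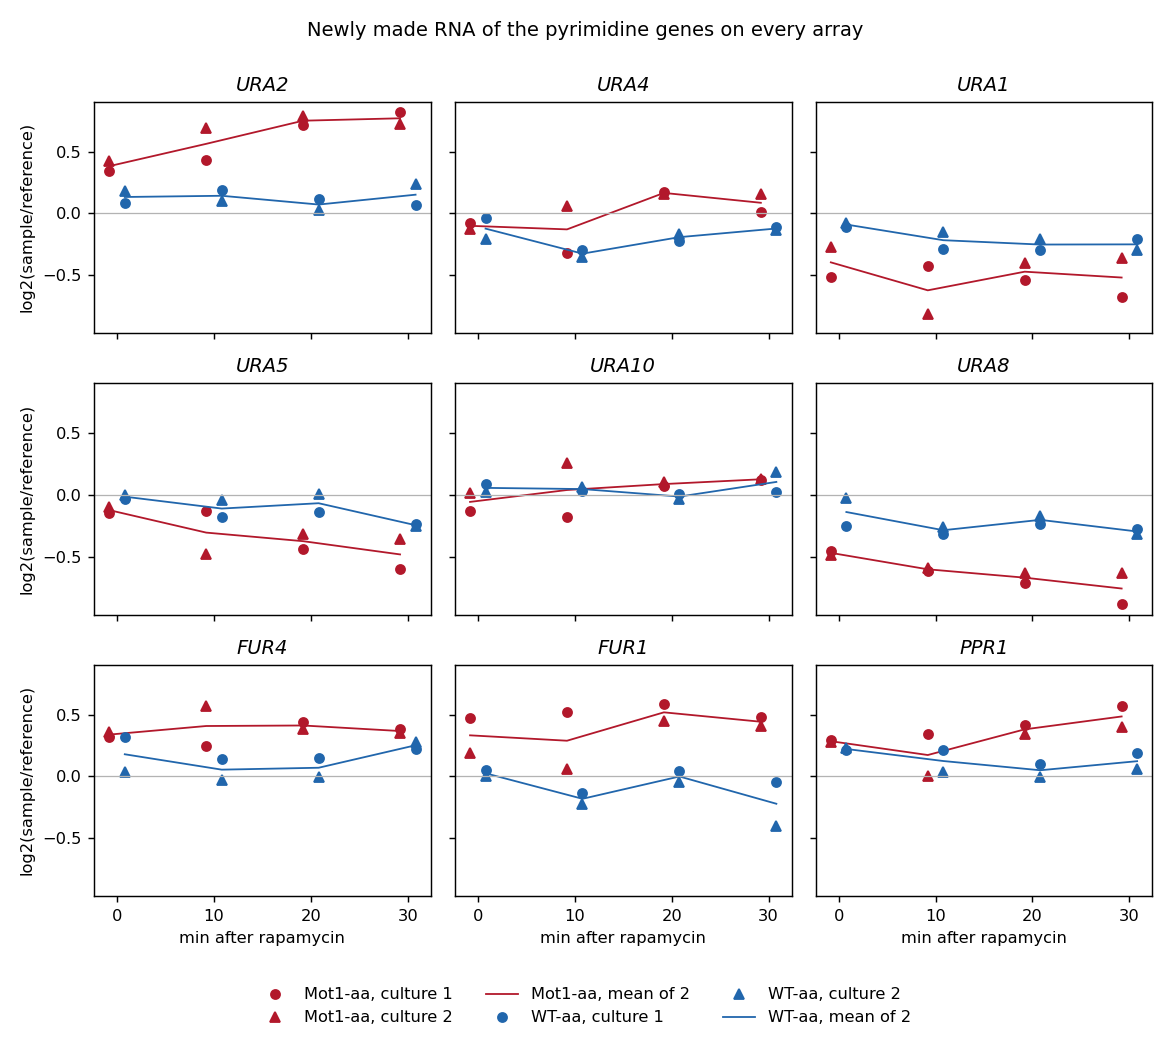
Log2 of sample over reference (vertical axes) of 9 pyrimidine genes against minutes after rapamycin (horizontal axes); circles are culture 1, triangles culture 2, and lines join the means of 2 arrays, with Mot1-aa in red and WT-aa in blue. URA2 and FUR1 are higher and URA8 lower on every Mot1-aa array than on any WT-aa array, while URA10 of both strains overlaps.

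URA2 (YJL130C), the carbamoyl phosphate synthetase and aspartate transcarbamylase that opens the pathway, rose in Mot1-aa after rapamycin. In Mot1-aa, cultures 1 and 2 stood at 0.34 and 0.43 at 0 min, 0.44 and 0.69 at 10 min, 0.71 and 0.79 at 20 min, and 0.82 and 0.72 at 30 min. In WT-aa they stood at 0.09 and 0.18, 0.19 and 0.10, 0.11 and 0.03, and 0.07 and 0.24 at the same times. The Mot1-aa arrays of 20 and 30 min all lay above those of 0 min, and the WT-aa times overlapped. Within Mot1-aa URA2 rose by 0.37 at 20 min (SE 0.09, adjusted p = 0.0149 by limma) and by 0.39 at 30 min (SE 0.09, 1.31-fold, adjusted p = 0.00684). The depletion effect was 0.43 at 20 min (SE 0.13, adjusted p = 0.0745) and 0.37 at 30 min (SE 0.13, adjusted p = 0.0687), with 0.50 in culture 1 and 0.24 in culture 2 at 30 min. With single arrays left out, the depletion effect ranged from 0.35 to 0.51 at 20 min and from 0.285 to 0.45 at 30 min. With the authors' deposited log2 ratios the change in Mot1-aa did not pass at either time, at 0.19 at 20 min (adjusted p = 0.193) and 0.15 at 30 min (adjusted p = 0.264).

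URA4 (YLR420W), the dihydroorotase of the third step and a Ppr1 target like URA1, ranged from -0.32 to 0.17 in Mot1-aa and from -0.35 to -0.03 in WT-aa. Its depletion effect was 0.34 at 20 min (SE 0.16, adjusted p = 0.259 by limma) and 0.19 at 30 min (SE 0.16, adjusted p = 0.426). With single arrays left out, the effect at 20 min ranged from 0.22 to 0.46. URA4 and URA1 are both under Ppr1, and the mean of URA4 was above, and that of URA1 below, its own WT-aa mean.

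URA5 (YML106W) and URA10 code for the major and the minor orotate phosphoribosyltransferase. URA5 stood at -0.15 and -0.10 in Mot1-aa at 0 min and at -0.60 and -0.36 at 30 min, in cultures 1 and 2. The WT-aa arrays read -0.03 and 0.00 at 0 min, and -0.24 and -0.25 at 30 min. It fell by 0.36 in Mot1-aa at 30 min (SE 0.12, adjusted p = 0.0304 by limma), against a change of -0.23 in WT-aa (SE 0.12, adjusted p = 0.598). The depletion effect, the difference of these changes, was -0.13 (SE 0.17, adjusted p = 0.612). URA10 ranged from -0.18 to 0.26 in Mot1-aa and from -0.04 to 0.19 in WT-aa, and at 30 min its depletion effect came to 0.14 (SE 0.15, adjusted p = 0.553). The 2 arrays of Mot1-aa at 10 min held both its lowest and its highest value. Probe sequences were not used here, so binding of one isozyme's RNA to the other's probe was not tested.

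URA8 (YJR103W), a CTP synthase, had the most negative mean difference from WT-aa of the 9 genes at 0 and 30 min. In Mot1-aa, cultures 1 and 2 stood at -0.46 and -0.48 at 0 min, -0.61 and -0.59 at 10 min, -0.71 and -0.63 at 20 min, and -0.88 and -0.63 at 30 min. In WT-aa they stood at -0.25 and -0.03, -0.31 and -0.26, -0.24 and -0.17, and -0.28 and -0.31. Every Mot1-aa array lay below every WT-aa array. URA8 fell by 0.29 in Mot1-aa at 30 min (SE 0.08, 1.22-fold lower, adjusted p = 0.0159 by limma), where WT-aa had -0.16 (SE 0.08, adjusted p = 0.605). The depletion effect was -0.13 (SE 0.12, adjusted p = 0.445), with -0.40 in culture 1 and 0.14 in culture 2.

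FUR1, the uracil phosphoribosyltransferase that turns uracil and 4-thiouracil into nucleotides, had higher means in Mot1-aa at every time, although the difference did not pass at 0 min. In Mot1-aa, cultures 1 and 2 stood at 0.48 and 0.19 at 0 min, 0.52 and 0.06 at 10 min, 0.59 and 0.45 at 20 min, and 0.48 and 0.41 at 30 min. In WT-aa they stood at 0.05 and 0.00, -0.14 and -0.23, 0.04 and -0.04, and -0.04 and -0.40. Every Mot1-aa array lay above every WT-aa array, with 0.06 in Mot1-aa at 10 min and 0.05 in WT-aa at 0 min the closest values. At 30 min the depletion effect came to 0.36 (SE 0.15, adjusted p = 0.11 by limma), with 0.10 in culture 1 and 0.62 in culture 2. With single arrays left out it ranged from 0.26 to 0.45. Of the 0.36, the change of Mot1-aa gave 0.11 (SE 0.10) and that of WT-aa -0.25 (SE 0.10, adjusted p = 0.537), so neither strain alone passed.

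FUR4 (YBR021W), the uracil permease, ranged from 0.25 to 0.57 in Mot1-aa and from -0.03 to 0.32 in WT-aa. Its depletion effect was 0.19 at 10 min (SE 0.17), 0.18 at 20 min (SE 0.17) and -0.04 at 30 min (SE 0.17, adjusted p = 0.872 by limma). The 95% interval at 30 min ran from -0.42 to 0.33. PPR1 (YLR014C), the zinc cluster activator of the pathway, stood at 0.29 and 0.28 in Mot1-aa at 0 min and at 0.57 and 0.40 at 30 min, against 0.22 and 0.23 at 0 min and 0.19 and 0.06 at 30 min in WT-aa. At 30 min its depletion effect came to 0.30 (SE 0.12, adjusted p = 0.0987), with 0.31 in culture 1 and 0.29 in culture 2. With single arrays left out it ranged from 0.22 to 0.38.

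**Figure D2:**
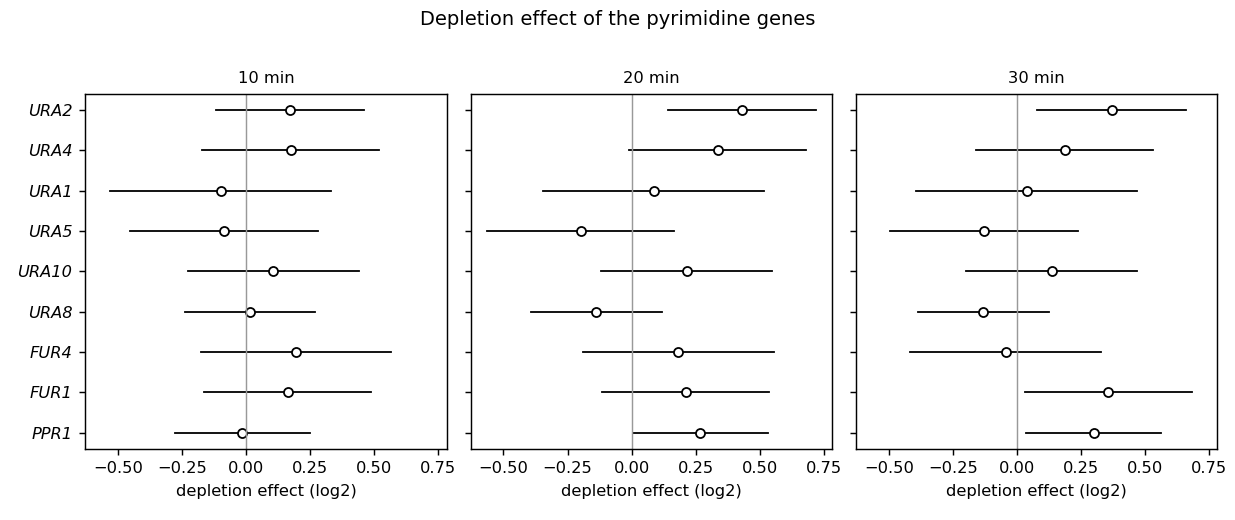
Depletion effect on the log2 scale (horizontal axes) of 9 pyrimidine genes at 10, 20 and 30 min; points are limma estimates, bars are 95% intervals, and every point is open because none passed at an adjusted p under 0.05. At 30 min URA2 has the highest estimate, 0.37, and URA8 the lowest, -0.13, while URA1 lies at 0.04 and FUR4 at -0.04.

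Changes within each strain were counted next. In WT-aa 0 of 10 passed at 10, 20 and 30 min, where 0.414%, 0.113% and 0.395% of all genes did, with 399, 243 and 461 of all genes at an unadjusted p under 0.05. In Mot1-aa 0 of 10 passed at 10 min, against 3.46% of all genes. At 20 min 1 of 10 passed, URA2, against 23.9%. At 30 min 3 of 10 passed, against 41.9%: URA2 higher, where 22.9% of all genes were, and URA5 and URA8 lower, where 19% were. All changes in Mot1-aa share the 0 min arrays. URA5 and URA8 were not called without Mot1-aa 0 min culture 1 or Mot1-aa 30 min culture 1, nor URA5 without Mot1-aa 0 min culture 2, and their highest adjusted p were 0.247 and 0.174. Leaving out Mot1-aa 30 min culture 1 took away the call of URA2 at 30 min (adjusted p = 0.083). Its call at 20 min was lost without any one of the Mot1-aa arrays of 0 and 20 min (highest adjusted p 0.102). Without Mot1-aa 10 min culture 1, 4 of 10 passed at 10 min, where 23.2% of all genes did, and without culture 2 it was 0 of 10 and 9.33%. Without either of these arrays, 3 of 10 passed at 20 min (URA2, URA4 and URA5), where 37.1% of all genes did. At 30 min 6 of 10 then passed, with URA4, URA10 and PPR1 added, where 55.7% did.

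Next, the strains were compared at single times. At 30 min 4 of 10 differed between Mot1-aa and WT-aa, against 49.1% of all genes. FUR1 was higher in Mot1-aa by 0.66 (SE 0.10, 1.59-fold, adjusted p = 4.63e-04 by limma), URA2 by 0.62 (SE 0.09, 1.54-fold, adjusted p = 3.29e-04) and PPR1 by 0.36 (SE 0.08, 1.29-fold, adjusted p = 0.00487). URA8 was lower, with a difference of -0.46 (SE 0.08, 1.38-fold lower, adjusted p = 9.62e-04). When arrays were scaled on external control spots, 1 of 10 passed, URA8, against 15.8% of all genes. FUR1, URA2 and PPR1 lost the call (adjusted p = 0.286, 0.419 and 0.839 by limma). The direction of these 4 differences held whichever array was left out. Without either Mot1-aa 10 min array 7 of 10 passed, with URA1, URA4 and URA5 added, where 60.6% of all genes did.

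At 0 min, before rapamycin, 0 of 10 differed between the strains, against 2.69% of all genes, with 778 of all genes at an unadjusted p under 0.05. URA8 came nearest, with a difference of -0.33 (SE 0.08, adjusted p = 0.0657 by limma). FUR1 stood at 0.31 (SE 0.10, adjusted p = 0.188), URA1 at -0.31 (SE 0.14, adjusted p = 0.336) and URA2 at 0.25 (SE 0.09, adjusted p = 0.226). Without either Mot1-aa 10 min array URA8 and FUR1 passed (lowest adjusted p 0.0256 and 0.0402), as did 8% of all genes. The 0 min arrays include Mot1-aa culture 1, the one with the least signal.

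Because several genes stood apart at all times, the mean difference over the 4 times was also fitted, a comparison chosen after the values were seen. It mixes the time before rapamycin with the times after it, so it shows no response to depletion. In it 8 of the 10 genes differed, against 54.1% of all genes. FUR1, URA2, FUR4, PPR1 and URA4 were higher in Mot1-aa, by 0.49 (SE 0.05), 0.49 (SE 0.05), 0.24 (SE 0.06), 0.20 (SE 0.04) and 0.20 (SE 0.06). The differences of the lower genes were -0.39 for URA8 (SE 0.04), -0.30 for URA1 (SE 0.07) and -0.21 for URA5 (SE 0.06). The adjusted p by limma ran from 7.85e-06 for URA2 to 0.0116 for URA4, and the 8 calls held whichever array was left out. Each difference had the same sign in both cultures, for example -0.32 and -0.28 for URA1. These are the same arrays from which the comparison was chosen. The fit counts the 4 times of a strain as separate cultures, which no label settles. URA10 differed by 0.00 (SE 0.05, adjusted p = 0.996).

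**Figure D3:**
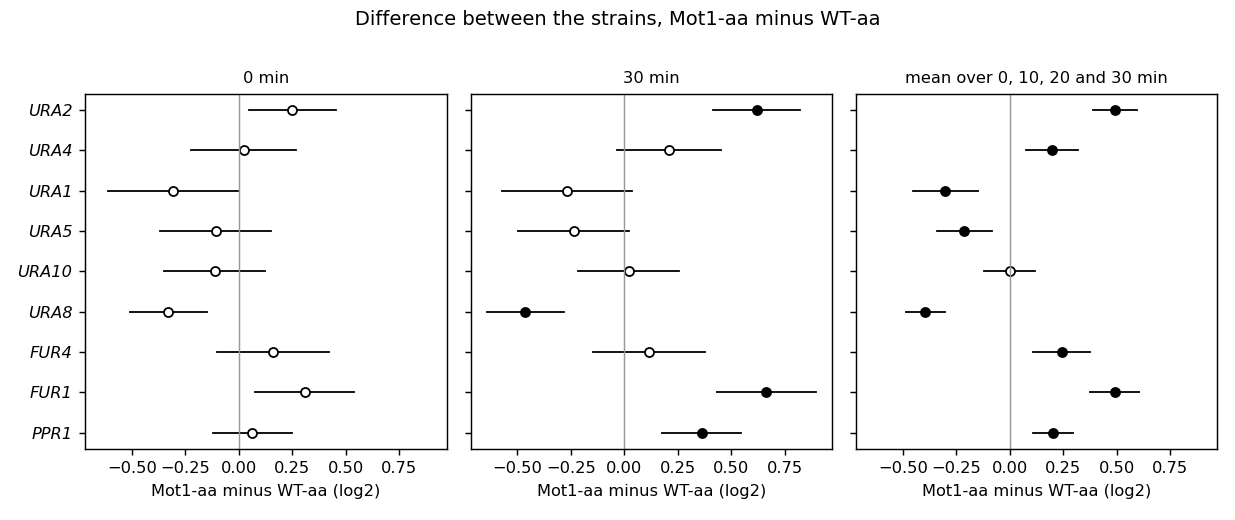
Difference between the strains, Mot1-aa minus WT-aa on the log2 scale (horizontal axes), for 9 pyrimidine genes at 0 min, at 30 min and as the mean over the 4 times; bars are 95% intervals and filled points passed at an adjusted p under 0.05 by limma. No point is filled at 0 min, 4 are filled at 30 min (URA2, URA8, FUR1 and PPR1) and 8 in the mean over the times.

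By overlap alone, URA2 and FUR1 were higher on all 8 Mot1-aa arrays than on any WT-aa array, as were 4.37% of all genes. URA8 was lower on all 8, as were 2.35% of all genes. A difference between strains that holds at 0 min can come from the tag or from anything else that set the cultures apart, and these cannot be told apart here. When arrays were scaled on the external control spots, whose signal was only 1.15 to 1.50 times the background, the median of all genes moved to -0.61 in the strain difference at 0 min, -0.27 over the 4 times and 0.27 in the depletion effect at 30 min. Under that scaling the mean differences of FUR4, PPR1 and URA4 turned to -0.04, -0.04 and -0.03, none of which passed. Those of URA2 and FUR1 came to 0.26 (adjusted p = 0.127) and 0.27 (adjusted p = 0.0961) and did not pass either, while URA1, URA5 and URA8 stayed called. The changes of URA5 and URA8 in Mot1-aa at 30 min turned to 0.08 and 0.11 and did not pass. At 10, 20 and 30 min no depletion effect of the 10 genes passed under that scaling, where 0%, 0% and 0.0753% of all genes did. With so few calls among all genes, this says little about the 10 genes.

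The rest of nucleotide metabolism was described with a list of 25 further genes, of which 24 had a named probe, all above the control spots on all 16 arrays. At 30 min 9 of the 24 had a depletion effect, 7 higher and 2 lower, and the median was 0.05. The background is the 13.6% of all genes that were higher and the 7.51% that were lower. The list was chosen with earlier results of these data known, so the count describes these genes and tests nothing about them as a group.

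Ribonucleotide reductase, which turns ribonucleotides into the precursors of DNA, had a positive depletion effect in 3 of 4 genes. RNR2 (YJL026W), its main small subunit, stood in cultures 1 and 2 of Mot1-aa at 0.34 and 0.58 at 0 min, 1.08 and 1.12 at 10 min, 1.56 and 1.72 at 20 min, and 1.75 and 1.84 at 30 min. In WT-aa it lay between -0.09 and 0.26 on all 8 arrays. Its depletion effect was 1.12 at 20 min (SE 0.10, 2.17-fold) and 1.36 at 30 min (SE 0.10, 2.56-fold, adjusted p = 3.38e-05 by limma). RNR4 (YGR180C) and RNR1 (YER070W) had depletion effects of 0.69 (SE 0.17) and 0.64 (SE 0.15), while RNR3, the alternative large subunit, stood at 0.06 (adjusted p = 0.69). RNR3 was dim, with a median signal of 2.52 times the background. The medians were 242 for RNR1, 80.1 for RNR2 and 77.2 for RNR4, so the low value of RNR3 cannot be set against theirs.

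Both nucleotidases of the list had a positive depletion effect at 30 min. It was 0.43 for SDT1 (YGL224C, SE 0.09, adjusted p = 0.00877 by limma) and 2.26 for PHM8 (YER037W, SE 0.27), which has a role in phosphate starvation too. CPA1 (YOR303W), the small subunit of the separate carbamoyl phosphate synthetase of arginine synthesis, had a depletion effect of 0.67 (SE 0.12, 1.59-fold, adjusted p = 0.00374). That of URA2 was 0.37 and did not pass, and the genes were not tested against each other. Among 6 genes of uptake and salvage only FCY2 (YER056C), the purine and cytosine permease, passed, at 0.42 (SE 0.13, adjusted p = 0.0499). The uridine permease FUI1 stood at 0.25 (SE 0.16, adjusted p = 0.289) and the uridine kinase URK1 at 0.09.

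PRPP is the sugar phosphate that Fur1, Ura5 and Ura10 use. Of its 5 synthetase genes 2 had a negative depletion effect, PRS5 (YOL061W) with -0.64 (SE 0.16, adjusted p = 0.0189 by limma) and PRS2 (YER099C) with -0.54 (SE 0.17, adjusted p = 0.0491). The others stood between -0.40 and -0.18 and did not pass. URA7 (YBL039C), the major CTP synthase, stood at 0.05 (SE 0.09, adjusted p = 0.716), and none of the 4 thymidylate genes passed. FCY2 and PRS2 each lost the call without any one of 13 of the 16 arrays, with highest adjusted p of 0.165 and 0.184. RNR1 and PRS5 lost it without 5 arrays and RNR4 without 3, each of them arrays of 0 or 30 min, with highest adjusted p from 0.0663 to 0.0802. RNR2, PHM8, CPA1 and SDT1 kept it whichever array was left out. Scaled on the external control spots, 0 of the 9 passed (adjusted p from 0.054 to 0.83), where only 0.0753% of all genes did. Without the replicate block RNR2, PHM8 and CPA1 passed, where 8.71% of all genes did. Median centring took away the calls of SDT1 (0.38, adjusted p = 0.0595), PRS2 and PRS5 (adjusted p = 0.0702 and 0.0754). The authors' deposited log2 ratios took away those of SDT1 (0.27, adjusted p = 0.0729), FCY2 (0.24, adjusted p = 0.186) and PRS2 (adjusted p = 0.0672).

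**Figure D4:**
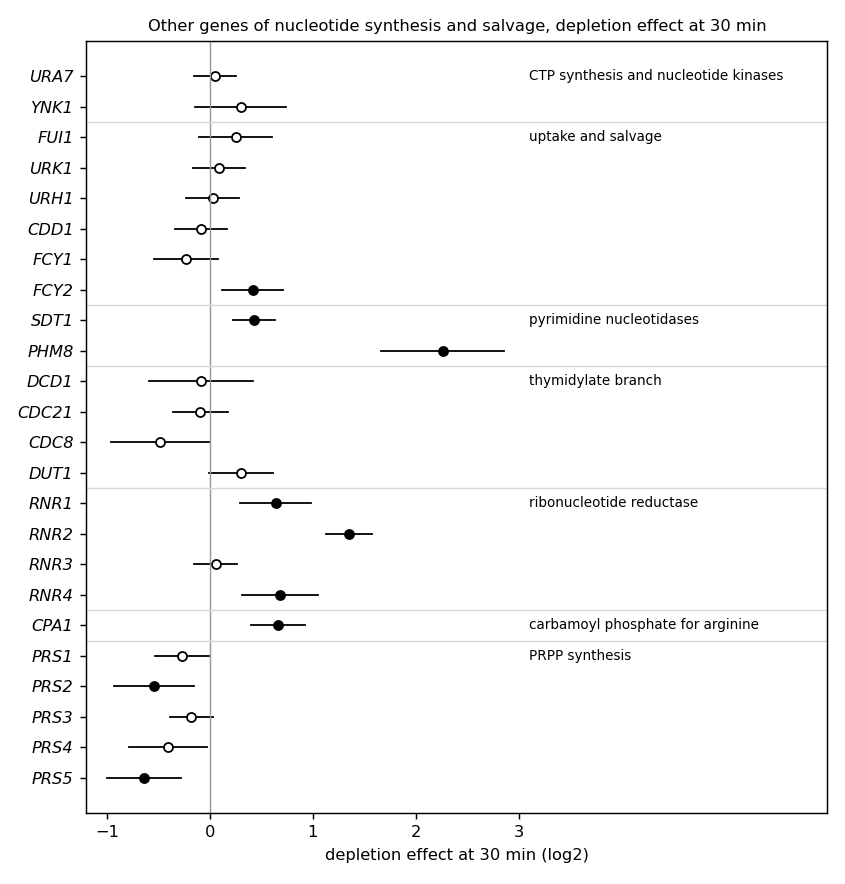
Depletion effect at 30 min on the log2 scale (horizontal axis) of 24 other genes of nucleotide metabolism, grouped by role; bars are 95% intervals and filled points passed at an adjusted p under 0.05 by limma. PHM8 at 2.26 and RNR2 at 1.36 lie farthest to the right, and PRS5 at -0.64 farthest to the left.

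The genes with the pattern most like that of URA1 over the 8 group means were YNL040W, ATP11, ALG1, MRP21 and MSW1, with Pearson r from 0.985 to 0.974. For FUR4 they were ARG8, RNH201, YDL129W, CTF18 and PZF1, with r from 0.984 to 0.966. These are descriptions over 8 points that share the 16 arrays and the reference pool, and the highest of 5315 values are taken. None of these 10 genes passed as a depletion effect at 30 min, with the lowest adjusted p at 0.322 for YNL040W. With the authors' deposited log2 ratios 2 of the 5 genes of each list were again among the top 5. Median centring kept 2 for URA1 and 1 for FUR4, and scaling on external control spots kept 1 and 2. Without background correction 4 of each list were kept.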

How the data were processed

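The 10 genes, the list of other genes and the comparisons were chosen with earlier results of these data known. Per the file headers, the deposited scanner tables hold intensity values of each spot and its local background, without background subtraction. The authors' deposited series table holds normalized log2 ratios of Cy5 over Cy3, and the sources used here do not give their normalization. It served as an alternative (median per array -0.00706 to 0.0216, r = 0.799 to 0.98 with the values used).

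With limma 3.58.1 in R 4.3.3, intensities were corrected by normexp (offset 50), normalized by loess over 12776 gene spots, turned to log2(sample/reference) and averaged over duplicate spots. Of 6388 probes 5326 had a symbol. Updated through the RefSeq table, they gave 5315 genes, which are named by symbol and locus tag without coordinates. One model (lmFit, eBayes) held the 8 groups and a dye term, with Benjamini-Hochberg adjustment over all genes. Since culture and dye coincide, the dye term serves as the replicate block. Differences between cultures 1 and 2 correlated between groups with a median r of 0.62 (28 pairs, -0.356 to 0.777, 25 over 0.1). The reference channel was the more alike one between arrays (r = 0.993 against 0.979 in culture 1, 0.997 against 0.985 in culture 2). The mean strain difference over the 4 times and culture as a random block were added after the data were seen. The fit was tested on simulated data with Gaussian noise. Of genes given a depletion effect of 0.5, 1 or 2 at 30 min in either direction, 45.5%, 88.1% and 98.5% were called. All depletion effects of the 10 genes were smaller than 0.5, so effects of their size can be missed. Every one of the 10 genes is named; of the 25 others, those with a depletion effect at 30 min and some beside them; likeness is Pearson r over group means. The number of arrays limits the precision.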

Additional observations from a re-analysis of the deposited data

Results flagged for a closer look

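In the main fit no depletion effect of the 10 pyrimidine genes passed as a difference between the responses of the strains. Among the other genes of nucleotide metabolism, those whose change from 0 min differed between Mot1-aa and WT-aa by limma's interaction test are listed for a closer look. At 20 min these were PHM8 at 1.66, RNR2 at 1.12, CPA1 at 0.675, RNR4 at 0.648 and SDT1 at 0.401. At 30 min they were PHM8 at 2.26, RNR2 at 1.36, RNR4 at 0.685, CPA1 at 0.666, RNR1 at 0.64, SDT1 at 0.429 and FCY2 at 0.416, with PRS2 at -0.542 and PRS5 at -0.641. At 20 min RNR4 lost its call without any one of 13 arrays, SDT1 without 7 and CPA1 without WT-aa 20 min culture 2. Groups of 2 arrays are too small for a test of single outlying arrays.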

How the results depend on the processing

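Counts of the 10 genes passing changed as follows. Without the replicate block the strain difference at 30 min kept 4, where 34.7% of all genes passed. The change of Mot1-aa at 30 min had 2 (main 3), where 27.7% did. The depletion effect of all genes at 30 min had 463 calls (main 1120). Median centring gave 2 for the change of Mot1-aa at 20 min (main 1), where 19.1% of all genes passed. Array weights gave 1 for the depletion effect at 20 min (main 0), where 13.3% of all genes passed. For the change of Mot1-aa they gave 3 at 20 min and 4 at 30 min (main 3), where 33.1% and 51.4% did. For the strain difference at 30 min they gave 7 (main 4), where 60.1% did. For the strain difference the authors' log2 ratios gave 1 at 0 min (main 0) and 5 at 30 min (main 4, URA4 added). Of all genes 3.01% and 49% passed there. For the change of Mot1-aa the authors' log2 ratios gave 1 at 20 min, URA4 in place of URA2. At 30 min they gave 2 (main 3), losing URA2 and URA8 and adding URA4. Of all genes 24.3% and 41.5% passed at these times. Scaling on external control spots gave 2 and 0 for the change of Mot1-aa at 20 and 30 min, where 11.6% and 14.8% of all genes passed. It gave 1 for the strain difference at 30 min and 3 over the 4 times (main 8), where 15.8% and 45.6% did. It turned the change of Mot1-aa at 30 min to 0.0772 for URA5 and 0.114 for URA8, and the mean strain difference to -0.0417 for FUR4, -0.0419 for PPR1 and -0.0337 for URA4. The cause was not tested. Leaving out single arrays gave 0 to 2 and 0 to 3 for the depletion effect at 20 and 30 min, 0 to 4, 0 to 3 and 0 to 6 for the change of Mot1-aa at 10, 20 and 30 min, 0 to 2 and 4 to 7 for the strain difference at 0 and 30 min, and 8 to 8 over the 4 times. The depletion effect at 10 min and the changes of WT-aa stayed at 0. Apart from the mean over the 4 times, the highest of these counts came without a Mot1-aa 10 min array. Such a fit leaves 1 array in that group, and more of all genes passed in it than in the main fit. For the depletion effect the genes were URA2 and URA4 at 20 min, and URA2, FUR1 and PPR1 at 30 min. For all genes, the depletion effect at 20 min had 430 calls, with 86 without the block, 244 with median centring, 0 on external controls, 709 with array weights and 102 to 827 with single arrays left out. At 30 min median centring gave 696, external controls 4 and single arrays left out 536 to 2008.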
